A study of Arabidopsis thaliana with 4 samples.

Results

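Gene families of the plant cytoskeleton and membrane traffic were followed in shoots of Arabidopsis thaliana that overexpress the transcription factor bHLH122. These are the TRM, NET, SEC and PRA genes. A gene was taken where its symbol opens with 1 of these stems followed by a digit or a family letter, and where a probe set names that nuclear gene alone. This gave 47 genes of the 13212 nuclear genes so measured, namely 15 TRM, 10 NET, 10 SEC and 12 PRA genes, each with 1 probe set. A pair of the 47 genes, TRM82 and PRAF1, share letters but not ancestry with their group: TRM82 is a tRNA modification gene and PRAF1 is no prenylated Rab acceptor by its full name.

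The study compared 2 arrays of bHLH122 overexpressors with 2 arrays of wild type, all in the Col-0 background and with no other treatment named. After 96 h of stratification the plants spent 1 week on medium, then 2 weeks in soil, and RNA came from the shoot. The source labels call the overexpressor arrays separate lines, while both titles carry line number 18. The labels name no promoter for the transgene and say neither whether plants were pooled nor whether the wild-type samples were grown apart. A p-value therefore measures only how these samples spread, a spread that may be technical. In whole shoots, fewer cells of a type and less RNA per cell cannot be told apart.

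TRM proteins (TON1 RECRUITING MOTIF) carry short motifs through which several of them bind TON1 and a protein phosphatase and bring both to cortical microtubules, where they help set the plane of division and cell shape. NET proteins (NETWORKED) bind actin filaments and tie them to membranes. Most of the SEC symbols here descend from yeast secretion mutants. The SEC genes cover unrelated proteins, most of them subunits of the exocyst, the complex that tethers secretory vesicles to the plasma membrane. PRA1 proteins are small membrane proteins that bind prenylated Rab GTPases, the switches of vesicle transport.

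TRM genes were mostly higher in the overexpressors and PRA genes mostly lower. In TRM, 10 of 15 genes rose and none fell, with a median log2 fold change of 0.45. In PRA, 6 of 12 fell and none rose, with a median of -0.47. SEC had 3 of 10 genes higher (median 0.43) and NET 2 of 10 (median 0.16), and neither had a gene that fell. Calls are those of limma at an adjusted p under 0.05 over all 22746 probe sets, of which 12.2% were called higher and 11.8% lower, with a median log2 fold change of -0.02. The NET share is thus close to the background.

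The shares for TRM and PRA stand above that background, but the families were proposed with earlier results of these data known, so the counts describe them, and a difference between families was not tested. The arrays of the 2 groups did not overlap for 37 genes, 25 higher and 12 lower in the overexpressors. Over all probe sets, 29.1% were apart and higher and 32.1% apart and lower. The calls rest on variance shared across the table. Under ordinary statistics, where each probe set has its own variance, limma's fit called 0 of the 47 genes after adjustment, and 16 had an unadjusted p under 0.05, against 27 with shared variance. Of the 21 called genes, 12 stayed past the threshold whichever array was left out.

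Markers of the tissue were read on the same arrays. Of 4 genes of the green shoot, all of photosynthesis, 3 rose and none fell, with a median log2 fold change of 0.39. Over all probe sets 12.2% were called higher and 11.8% lower. PRK, an enzyme of the Calvin cycle, read 12.97 and 12.77 against 12.13 and 12.23 in wild type (0.69, SE 0.11, limma adjusted p = 0.00853). SBPASE, of the same cycle, rose by 0.44 (SE 0.09, limma adjusted p = 0.02) and RCA, the activase of Rubisco, by 0.34 (SE 0.10, limma adjusted p = 0.0491). LHCB4.1, an antenna protein named here after its values were seen, had 0.11 and did not pass, and the 4 genes read 11.89 to 13.99 in all. PRK was called whichever array was left out, while SBPASE (0.43 to 0.45) and RCA (0.30 to 0.38) lost their calls each time, and RCA also after quantile normalization, median centring or removal of the length trend.

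The root hair genes EXPA7 and EXPA18 read 3.43 to 4.58 and the shoot meristem gene CLV3 3.03 to 3.22, and none of the 3 passed. For dividing cells 1 marker was measured, the kinase gene AUR1, at 6.60 and 6.67 against 6.94 and 6.91 (log2 fold change -0.29, SE 0.10, limma adjusted p = 0.0754). The part of these markers in the family results was not tested. Pollen and flower markers were sought by symbol, and none was found among probe sets that name 1 gene.

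**Figure D1:**
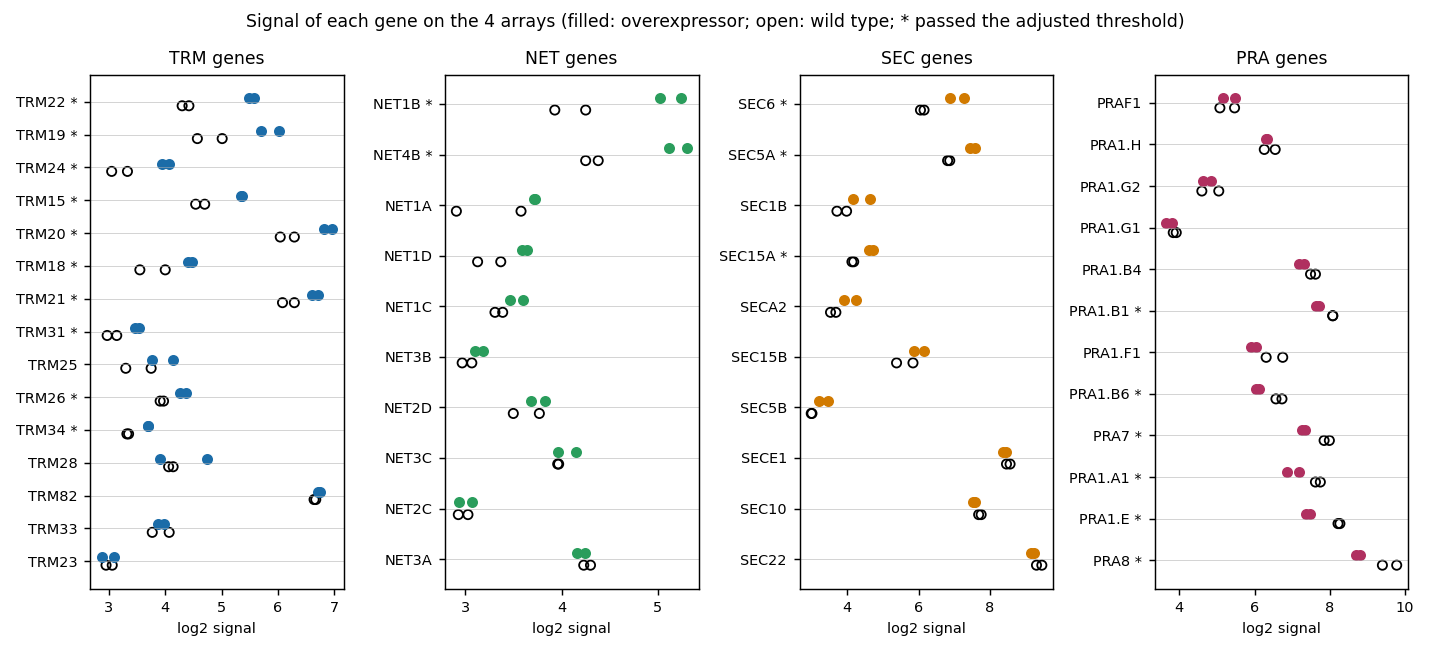
Log2 signal of the 47 genes on each array, in 4 panels by family, with genes sorted by fold change; filled points are the overexpressor arrays, open points the wild-type arrays, and a star marks the genes that passed. The filled points lie right of the open ones for all 10 starred TRM genes and left of them for all 6 starred PRA genes.

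Among TRM genes the widest difference was that of TRM22. It read 5.48 and 5.57 in log2 signal in the overexpressors, against 4.30 and 4.42 in wild type. The groups lay far apart compared with the gap within each, and TRM22 rose 2.24-fold (log2 fold change 1.16, SE 0.10, limma adjusted p = 0.00146).

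TRM19, TRM20 and TRM21 also rose. TRM19 had log2 signals of 6.01 and 5.69 against 4.57 and 5.01 in wild type, so that arrays of 1 genotype differed by up to 0.44 while the groups did not overlap (log2 fold change 1.06, SE 0.18, limma adjusted p = 0.00949). TRM20 read 6.96 and 6.82 against 6.04 and 6.29 (0.73, SE 0.12, limma adjusted p = 0.00955). TRM21 moved least of the 4, from 6.08 and 6.29 in wild type to 6.60 and 6.71 (0.47, SE 0.11, limma adjusted p = 0.0304).

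TRM15 and TRM24 rose by similar amounts from different lengths of gene. TRM15, at 5055 bp the longest TRM gene measured, read 5.37 and 5.34 against 4.54 and 4.70 (0.74, SE 0.10, limma adjusted p = 0.00538). TRM24, of 2527 bp, read 4.07 and 3.95 against 3.05 and 3.33 (0.82, SE 0.13, limma adjusted p = 0.00706). The wild-type values of TRM24 lie below the lower quartile of those arrays, 3.53 and 3.50, where a fold change can be understated.

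Smaller rises were found in TRM18 (log2 fold change 0.67), TRM31 (0.45), TRM26 (0.38) and TRM34 (0.36), with limma adjusted p from 0.0271 to 0.0381. TRM18 read 4.48 and 4.40 against 4.0 and 3.55. TRM31 is dim and short, 1345 bp, and read 3.47 and 3.54 against 2.97 and 3.14. These 4 genes and TRM21 lost their calls without some arrays. TRM26 (0.33 to 0.42 with 1 array left out) and TRM34 (0.34 to 0.37) did so whichever array was left out. TRM31 (0.37 to 0.54) and TRM21 (0.37 to 0.58) did so without overexpressor replicate 1, overexpressor replicate 2 or wild-type replicate 1. TRM18 (0.44 to 0.89) lost its call without overexpressor replicate 1, overexpressor replicate 2 or wild-type replicate 2.

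The count of called TRM genes was 5 and 6 when overexpressor replicates 1 and 2 were left out, and 6 and 7 for wild-type replicates 1 and 2. TRM22, TRM15, TRM24, TRM19 and TRM20 were called each time.

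The other 5 TRM symbols did not pass. TRM25 had a log2 fold change of 0.42 (SE 0.19), its groups apart by a narrow margin at 3.76 and 4.14 against 3.30 and 3.75. TRM28 was split within the overexpressors, 4.74 and 3.90, around wild-type values of 4.14 and 4.06. Its log2 fold change was 0.22, but 0.64 and past the threshold without overexpressor replicate 2, and -0.20 without overexpressor replicate 1. TRM23 (-0.02), near the floor of the arrays at 2.87 to 3.10, and TRM33 (0.00) had overlapping groups. TRM82, the tRNA modification gene, had a log2 fold change of 0.07 (SE 0.09). Without it 10 of 14 TRM genes rose, with a median of 0.46.

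The NET family changed in a pair of genes from different branches. NET1B, of the branch whose founding member NET1A marks the plasma membrane, read 5.02 and 5.24 against 4.25 and 3.93 in wild type and rose 2.06-fold (log2 fold change 1.04, SE 0.14, limma adjusted p = 0.0052). NET4B, of the branch known for joining actin to the vacuole membrane, read 5.30 and 5.11 against 4.38 and 4.25 (0.89, SE 0.11, limma adjusted p = 0.00412). Neither gene overlapped between groups, and both kept their calls with any 1 array left out.

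The rest of the NET1 branch lay higher on both overexpressor arrays without passing. NET1A had a log2 fold change of 0.47 (SE 0.21), with wild-type arrays at 2.91 and 3.58 and overexpressor arrays at 3.72 and 3.71. It passed without wild-type replicate 2 (0.81, limma adjusted p = 0.0175). NET1D (0.36, SE 0.12) and NET1C (0.19, SE 0.10) were also dim, between 3.13 and 3.64.

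The NET2 branch, known mainly from pollen, was at 2.93 to 3.07 for NET2C and 3.50 to 3.83 for NET2D, with overlapping groups and log2 fold changes of 0.03 and 0.12. In the NET3 branch, NET3C, whose product sits at contacts of the endoplasmic reticulum with the plasma membrane, had 0.09 (SE 0.11). NET3B had 0.13 and NET3A -0.06. No NET gene lay above the median of mean signal and 5 of 10 lay below the lower quartile.

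In the SEC group, 6 genes encode exocyst subunits, and 3 of them rose, beside 12.2% of all probe sets. The median length of the 6 genes was 6346 bp, and 41.0% of nuclear probe sets for genes over 6000 bp were called higher. SEC6 read 7.28 and 6.88 against 6.05 and 6.15 in wild type (log2 fold change 0.98, SE 0.15, limma adjusted p = 0.0069). SEC5A read 7.44 and 7.58 against 6.81 and 6.87 (0.67, SE 0.10, limma adjusted p = 0.00704). The groups were apart for both, though the overexpressor arrays of SEC6 were 0.40 from each other.

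SEC15A, the third, read 4.73 and 4.60 against 4.18 and 4.13 (0.51, SE 0.10, limma adjusted p = 0.016). It lost its call without overexpressor replicate 1, wild-type replicate 1 or wild-type replicate 2, at 0.44 to 0.57 over the arrays left out. The relatives SEC15B (0.40, SE 0.18) and SEC5B (0.34, SE 0.12) did not pass. SEC5B was dim, 2.99 to 3.46, and passed after quantile normalization (0.36, limma adjusted p = 0.0472).

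SEC10 did not pass and had a sign opposite to the other 5 of these subunits, at 7.59 and 7.51 against 7.75 and 7.68 in wild type (log2 fold change -0.16, SE 0.10, limma adjusted p = 0.287). SEC10 is known in Arabidopsis as a tandem pair of nearly identical copies, and this signal cannot be assigned to 1 of them. EXO84B was the 1 other exocyst gene found by symbol among probe sets that name 1 gene. It had -0.17 (SE 0.10) and did not pass, though it was called lower with the length trend removed (-0.46, limma adjusted p = 0.0243). The fold changes of the exocyst genes thus did not all have the same sign, and the difference between them was not tested.

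The other 4 SEC genes encode no exocyst subunit, and none passed. SEC1B, a Sec1/Munc18 protein that regulates membrane fusion, read 4.63 and 4.15 against 3.71 and 3.98 (0.55, SE 0.18, limma adjusted p = 0.0753). SECA2, an ATPase of the SecA type (0.46, SE 0.14), had limma adjusted p = 0.0552, and 0.0448 with the lowest quartile of mean signal left out. Without overexpressor replicate 2 both passed, at 0.79 and 0.63, and the SEC count was then 5. SEC22, a SNARE between endoplasmic reticulum and Golgi, read 9.15 to 9.45 and had -0.19 (SE 0.10). SECE1, of the plastid Sec translocase, had -0.12 (SE 0.10).

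All 11 PRA1 genes had a lower mean in the overexpressors, and 6 of them passed. With the length trend removed, described further on, PRA1.H and PRA1.G2 changed sign. The PRA1 genes are named by clade letters; PRA7 and PRA8 are also called PRA1.F2 and PRA1.F3. PRA8 read 8.80 and 8.69 against 9.40 and 9.78 in wild type and fell, at a log2 fold change of -0.84 (SE 0.15, limma adjusted p = 0.0103). PRA1.E read 7.37 and 7.48 against 8.22 and 8.27 and had the smallest p of the family (log2 fold change -0.82, SE 0.10, limma adjusted p = 0.00353). Both groups of PRA1.E were tight, with at most 0.11 between arrays of a group.

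PRA7 read 7.26 and 7.35 against 7.99 and 7.85 (-0.61, SE 0.10, limma adjusted p = 0.0095). PRA1.A1 read 7.17 and 6.87 against 7.62 and 7.75 (-0.66, SE 0.13, limma adjusted p = 0.016). The wild-type arrays were the higher ones in each case, with no overlap.

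In clade B, PRA1.B6 read 6.13 and 6.03 against 6.73 and 6.57 (-0.57, SE 0.11, limma adjusted p = 0.0137). PRA1.B1 read 7.64 and 7.71 against 8.08 on both wild-type arrays (-0.40, SE 0.09, limma adjusted p = 0.0276). PRA1.B4 had -0.31 (SE 0.10) and did not pass. It passed with log2(signal + 16) (-0.28, limma adjusted p = 0.0419) and with an intensity trend and robust prior in limma (limma adjusted p = 0.0465).

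PRA8, PRA1.E and PRA7 kept their calls with any 1 array left out. PRA1.B1 (-0.44 to -0.37) lost its call whichever array was left out. PRA1.B6 (-0.65 to -0.49) lost it without overexpressor replicate 2 or wild-type replicate 1, and PRA1.A1 (-0.81 to -0.51) without overexpressor replicate 2 or wild-type replicate 2. The PRA count was 3 without overexpressor replicate 2 and 4 or 5 without another array.

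PRA1.F1 came close to the threshold, at 5.92 and 6.05 against 6.31 and 6.75 (-0.54, SE 0.16, limma adjusted p = 0.0527), and passed without wild-type replicate 1 (-0.76). It also passed after median centring (-0.58) and quantile normalization (-0.57). PRA1.G1 (-0.14), PRA1.G2 (-0.09) and PRA1.H (-0.08) did not pass, and the groups of the latter pair overlapped. PRAF1, the member outside the PRA1 proteins, had 0.05 (SE 0.17). Without it 6 of 11 genes fell and the median was -0.54.

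The families differ in gene length, measured from start to end of the gene with introns in the TAIR10.1 gene table. The median was 3055 bp in TRM, 3321 bp in NET, 5361 bp in SEC and 1148 bp in PRA, against 2122 bp over nuclear probe sets. Across the 47 genes log2 fold change rose with log2 length, with r = 0.624 and rho = 0.63, by 0.31 per doubling. Over the 13367 nuclear probe sets with a length r was 0.332, with 0.15 per doubling. These are correlations across genes measured on the same 4 arrays and genes are not replicates. Within families r was 0.522 in TRM, 0.50 in NET, 0.56 in SEC and 0.293 in PRA.

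**Figure D2:**
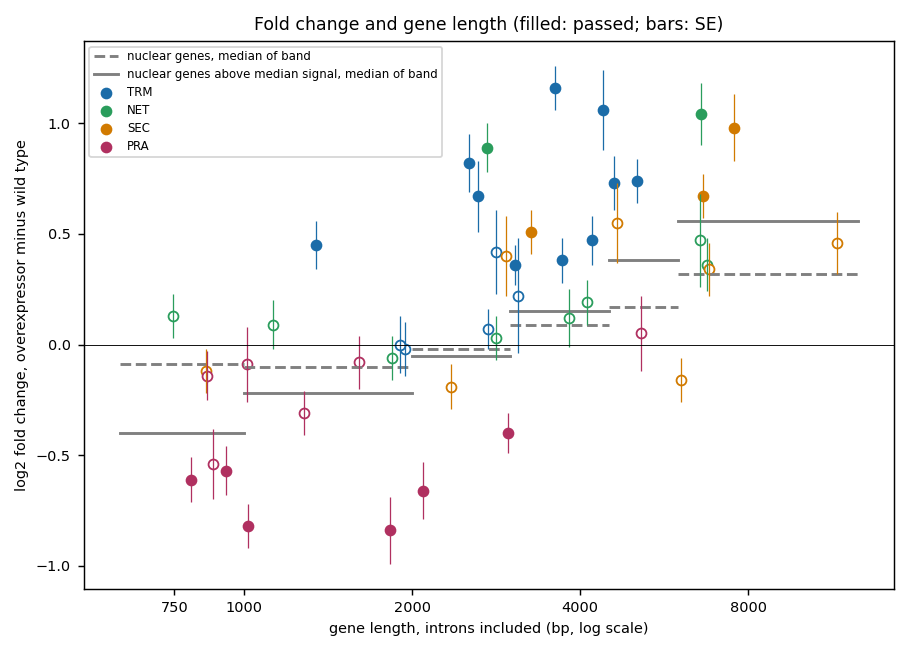
Log2 fold change (overexpressor minus wild type, with SE bars) of the 47 genes against gene length in bp on a log axis, coloured by family and filled where the gene passed; grey lines are medians of nuclear genes in 6 bands of length, dashed for all and solid for those above the median signal. Called TRM genes lie above and called PRA genes below the grey lines, and the line for bright genes runs from -0.40 in the shortest band to 0.56 in the longest.

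Set beside nuclear genes of like length, the families did not all stand out. In TRM, 5 of 6 genes of 3000 to 4500 bp rose, where 17.9% of nuclear probe sets of that length did, as did 2 of 2 genes of 4500 to 6000 bp, where 29.5% did. Of the 7 shorter TRM genes 3 rose, in bands where 3.43% and 9.72% did. Over 6000 bp, 2 of 5 SEC genes and 1 of 3 NET genes rose, and neither share passed the background of 41.0%. The other calls of these families came from shorter genes, NET4B as 1 of 2 NET genes of 2000 to 3000 bp (background 9.72%) and SEC15A as the 1 SEC gene of 3000 to 4500 bp (background 17.9%). Among nuclear probe sets above the median signal the shares called higher were greater. They were 24.2% at 3000 to 4500 bp, 47.5% at 4500 to 6000 bp and 62.9% over 6000 bp. In that last group lie 3 of the family genes, of which SEC6 and SEC5A rose.

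In PRA the picture changed with length and signal. Of 4 genes up to 1000 bp, PRA7 and PRA1.B6 fell. The background in that band was 14.4% of all nuclear probe sets, but 50.3% of those above the median signal, where 3 of the 4 lie. Of 5 genes between 1000 and 2000 bp, PRA1.E and PRA8 fell, against 17.9% of all and 32.0% of the brighter probe sets. Both genes between 2000 and 3000 bp, PRA1.A1 and PRA1.B1, fell, against 10.3% and 16.6%.

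Removing the length trend from each array by lowess, within 4 bins of mean signal, gave a second fit over the 13367 nuclear probe sets. Of these 8.11% were called higher and 7.61% lower. In that fit 13 of the 47 genes passed instead of 21, of which 12 were among the 21 with the same direction. The correlation of fold change with length across the 47 genes was then 0.275. Removal also takes out any biological relation to length.

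In TRM the median went from 0.45 to 0.36 and the count of higher genes from 10 to 5. TRM22 (0.95, SE 0.11, limma adjusted p = 0.00213), TRM24 (0.79), TRM19 (0.75), TRM18 (0.63) and TRM31 (0.48) still passed. TRM20 (0.39, limma adjusted p = 0.0624), TRM15 (0.36, limma adjusted p = 0.0551), TRM34 (0.28), TRM26 (0.26) and TRM21 (0.18) did not. The trend at the length and signal of TRM15 was 0.38, close to what remained of its fold change.

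Both called NET genes kept their calls, NET4B at 0.84 and NET1B at 0.81, and the family median was 0.15. In the SEC group SEC6 (0.45, limma adjusted p = 0.0714) and SEC5A (0.17, limma adjusted p = 0.35) no longer passed, against trend values of 0.52 and 0.50 at their lengths. SEC15A, of 3266 bp, stayed past the threshold at 0.42. SEC10 was called lower in this fit (-0.61, SE 0.10, limma adjusted p = 0.00965), where a trend value of 0.45 at its 6063 bp was subtracted.

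The PRA median went from -0.47 to -0.20 and the count of lower genes from 6 to 4. PRA8 (-0.68), PRA1.A1 (-0.55), PRA1.E (-0.51, limma adjusted p = 0.0215) and PRA1.B1 (-0.43) passed. PRA7 (-0.25) and PRA1.B6 (-0.15), both under 1000 bp, did not, with trend values of -0.36 and -0.42. PRA1.F1, also short, was at -0.11 with a trend value of -0.43.

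**Figure D3:**
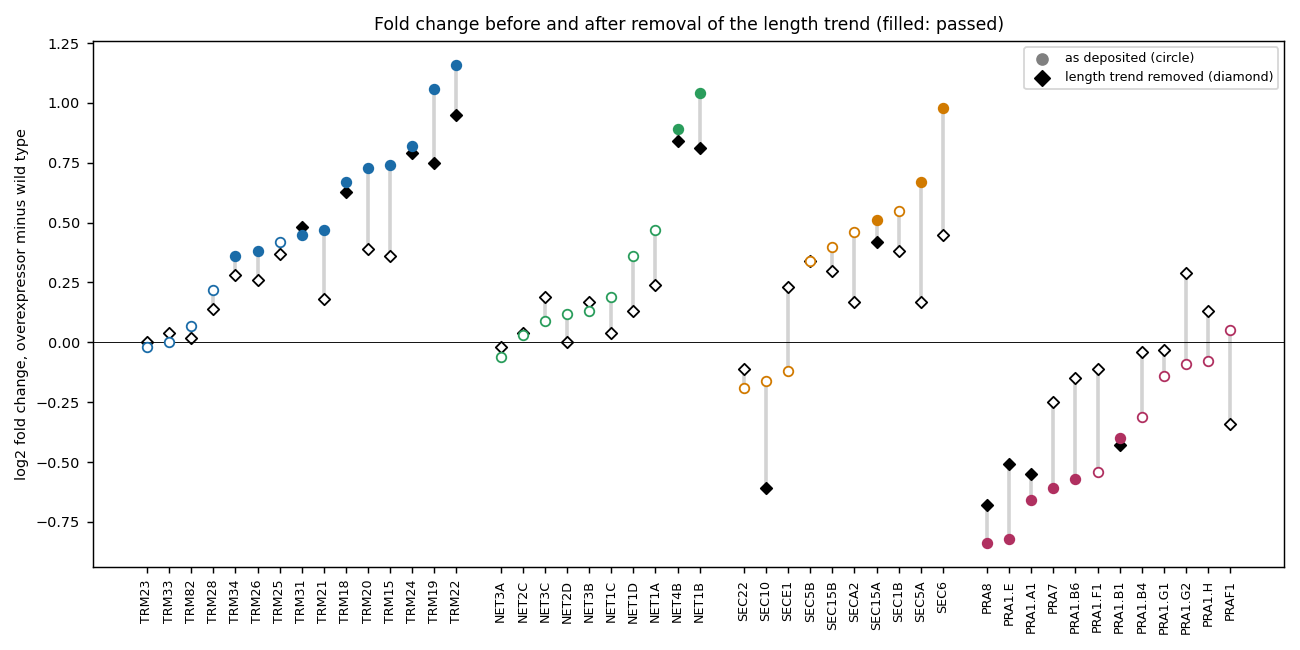
Log2 fold change (overexpressor minus wild type) of each gene, grouped by family, in the deposited values (circles) and with the length trend removed (diamonds), filled where the gene passed. TRM24 goes from 0.82 to 0.79 and NET4B from 0.89 to 0.84, whereas SEC6, SEC5A, PRA7 and PRA1.B6 end between -0.25 and 0.45 without a call and SEC10 moves to -0.61.

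The control probe sets that bear on RNA length and labelling were compared on each array. The log2 signal of the 3′ probe set minus the 5′ probe set was 3.17 and 2.87 for actin in the overexpressors and 3.03 and 3.16 in wild type, and 1.10 and 1.12 against 1.10 and 1.09 for ubiquitin. For GAPDH it was 0.41 and 0.43 against 0.49 and 0.45, with no overlap. In a second set of control probe sets it was 1.55 and 1.29 against 1.28 and 1.45 for actin, 0.07 and 0.17 against 0.09 and 0.03 for ubiquitin, and -0.26 and -0.18 against -0.20 and 0.04 for GAPDH, and the groups overlapped for each. The 24 poly-A spike-in probe sets had a median deviation from their 4-array mean of -0.13 and -0.50 in the overexpressors and 0.27 and 0.37 in wild type. The 18 hybridization controls had -0.11 and -0.19 against 0.15 and 0.12. Both kinds of spike-in read lower on the overexpressor arrays, and their part in the results was not tested.

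Other genes were listed by patterns in their symbols, among the 13513 probe sets that name 1 gene. The lists may therefore lack members of their families. Those of the cytoskeleton formed 6 lists, in which 8 of 39 genes rose and 5 fell. That is 20.5% and 12.8%, against 12.2% and 11.8% of all probe sets. None of 7 tubulin genes passed, with log2 fold changes from -0.19 (TUB9, SE 0.10) to 0.23 (TUB7, SE 0.14) and a smallest limma adjusted p of 0.208, that of TUB9. Of 17 genes for microtubule proteins, 15 of them IQD genes of calmodulin-binding scaffold proteins, 5 rose and 2 fell, the latter close to the background of 11.8%. Among the 15 IQD genes 5 rose and 1, IQD23, fell (-0.59, SE 0.14, limma adjusted p = 0.0298). IQD23 was also called lower with the length trend removed (-0.67), and had -0.73 to -0.45 with 1 array left out. IQD31 read 7.79 and 7.54 against 6.46 and 6.70 (1.08, SE 0.14, limma adjusted p = 0.00398), and iqd32 (0.94) and IQD30 (0.76) followed. IQD30 lost its call without overexpressor replicate 1 or wild-type replicate 2 (0.54 to 0.97) and with the length trend removed (0.52).

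TON1B, which encodes a TON1 protein that TRM proteins bind, fell, at a log2 fold change of -0.40 (SE 0.10, limma adjusted p = 0.029), at 6.95 and 6.87 against 7.29 and 7.34. It was picked out after its values were seen. Its call was lost whichever array was left out (-0.44 to -0.36) and with the length trend removed (-0.36). Of 2 kinesins and 6 myosins, 1 each was called higher, beside 12.2% of all probe sets, and the median log2 fold change of the myosins was 0.04. KINESIN-13A rose by 0.74, and the myosin XI-I, an actin motor of 12516 bp, by 0.93. With the length trend removed neither passed, at 0.35 and 0.24, while the myosin XIE went from -0.32 to -0.59 and was called lower.

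The 5 actin-binding genes of the list all encode LIM-domain proteins that bundle actin. Of these 3 fell, beside 11.8% of all probe sets. WLIM2a read 8.47 and 8.37 against 9.31 and 9.36 (-0.92, SE 0.10, limma adjusted p = 0.00246), WLIM1 had -0.71 and WLIM2b -0.58. The 3 kept their calls with any 1 array left out and with the length trend removed. The other 2 genes of the list, at 0.35 (SE 0.14) and -0.0 (SE 0.21), did not pass. Of 2 actin genes ACT11 rose by 0.49, though not without overexpressor replicate 1, wild-type replicate 1 or wild-type replicate 2 (0.38 to 0.61).

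In membrane traffic, 5 lists held 20 genes, of which 2 rose and 5 fell, beside 12.2% and 11.8% of all probe sets. KEU had the largest rise among the genes of these lists. It encodes KEULE, a Sec1/Munc18 protein of cell plate formation related to SEC1B. It read 6.65 and 6.66 against 5.55 and 5.52 (1.12, SE 0.09, limma adjusted p = 0.0013) and passed at 0.70 with the length trend removed. Of 2 Rab GTPases, ARA6 fell (-0.41, SE 0.10) and RAB6A (-0.15) did not pass. Of 4 ARF-like genes ARLA1D (-0.40) and ARLA1C (-0.35) fell. ARA6 (-0.45 to -0.37), ARLA1D (-0.42 to -0.37) and ARLA1C (-0.40 to -0.31) lost their calls whichever array was left out.

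Of 11 vacuolar sorting genes 1 rose and 2 fell, close to the 24.0% of all probe sets called in either direction. The 3 encode ESCRT-III proteins, which bud vesicles into endosomes. VPS24.1 rose by 0.90 (SE 0.10, limma adjusted p = 0.00276), VPS2.1 fell (-0.76, SE 0.10, limma adjusted p = 0.00396), and so did VPS46.2 (-0.40). VPS46.2 lost its call whichever array was left out (-0.43 to -0.38) and with the length trend removed (-0.16). VPS24.1 (1.07) and VPS2.1 (-0.64) passed with it removed.

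**Figure D4:**
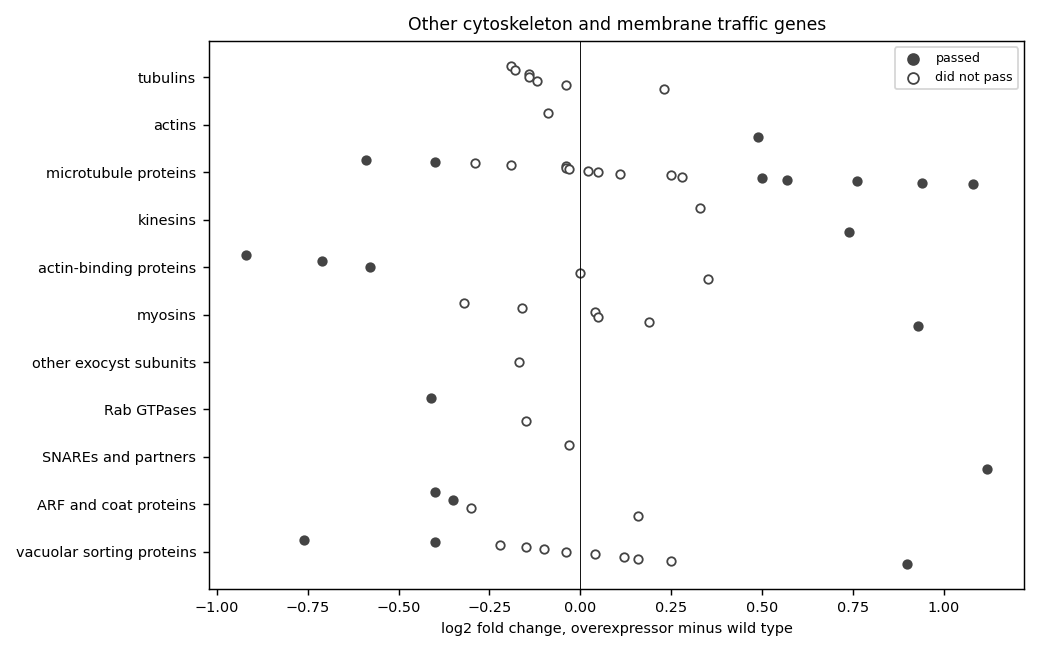
Log2 fold change (overexpressor minus wild type) of the other cytoskeleton and membrane traffic genes in the lists, 1 row of points per list, filled where the gene passed. The tubulins lie between -0.19 and 0.23 without a call, and the filled points of the actin-binding list lie between -0.92 and -0.58.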

How the data were processed

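RNA from 4 shoot samples was labelled with biotin by 3′ in vitro transcription, per the labels' protocols, and hybridized to Affymetrix arrays. The deposited values are linear signal intensities, 1 for each probe set on each array. They were made with RMA, per the submitters' processing notes, and the labels do not say which version was used or how values came back to a linear scale. Their log2 was taken, with no further background correction or normalization. Of 22810 probe sets, 64 controls were left out of the tests. Median signal was 39.2 to 40.8; precision is limited by having 4 arrays.

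Genes were named from the platform annotation, with 1 gene for 13513 probe sets, and symbols and lengths came from the TAIR10.1 table through Entrez identifiers (13436 matched). The 2 groups were fitted by limma 3.58.1 under R 4.3.3 with genotype as the single term (two-sided tests, Benjamini-Hochberg adjustment across 22746 probe sets, 2 residual and 4.24 prior degrees of freedom). The fit and the removal of the length trend were tested on simulated data. The trend was a lowess of span 0.5 on log2 length.

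Members and lists were chosen with earlier results of these data known. Named were all members and up to 3 genes per list with the smallest p. TON1B, IQD23 and LHCB4.1 were added after their values were seen. ARL and CHC1, matched by letters only, were left out of the lists after their values were seen. Deviations of arrays with the same replicate number correlated at -0.041, so the numbers were not taken as pairs. The overexpression of bHLH122 itself was not checked.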

Additional observations from a re-analysis of the deposited data

How the results depend on the processing

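Removal with each array's mean kept and counts without TRM82 and PRAF1 were chosen after seeing the data. Of the values for single genes under the alternatives, 864 stayed on the same side with the same sign, 172 dropped out of the calls, 20 entered them and 30 turned sign. These values cover the family genes and some list and marker genes. The mean over probe sets was entered as unchanged for each gene and was not computed for list and marker genes. The count over all probe sets, 5460, was 3318 to 3586 with 1 array left out (the remaining single array is taken to vary as the other genotype does), 3612 with the replicate number as a block, 5 with ordinary statistics, 2650 with nuclear probe sets, 2101 with the length trend removed (2192 with array means kept), 2240 at an adjusted p below 0.01 and 2904 when 1.5-fold was required. Ordinary statistics called 0 genes in each family. With 1 array left out the called genes were 5 to 7 in TRM, 2 to 3 in NET, 2 to 5 in SEC and 3 to 5 in PRA, and the medians 0.367 to 0.536, 0.101 to 0.225, 0.306 to 0.557 and -0.476 to -0.386. Below 0.01 TRM had 5 and PRA 2, and with 1.5-fold required TRM had 6. With the length trend removed TRM had 5, also with array means kept. The medians with the trend removed were 0.364 in TRM (0.343 with array means kept), 0.264 in SEC (0.244) and -0.203 in PRA (-0.224). With log2(signal + 16), which shrinks dim genes by construction, they were 0.198, 0.065, 0.255 and -0.415 in TRM, NET, SEC and PRA. The PRA median was -0.507 with median centring and -0.545 without PRAF1 or with a digit directly after the letters. The 13 genes called with the trend removed were 18 with 1 signal bin and 13 with 8 bins, spans of 0.3 or 0.8, or array means kept.

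Signs changed in genes with no call in the values as deposited, and the cause was not tested. With the trend removed they were 0.00016 for TRM23, -0.00289 for NET2D, 0.232 for SECE1, 0.126 for PRA1.H, 0.293 for PRA1.G2 and -0.337 for PRAF1. With array means kept they were -0.0053 for TRM82, -0.0234 for NET2D, 0.212 for SECE1, 0.106 for PRA1.H, 0.273 for PRA1.G2 and -0.357 for PRAF1. Median centring gave -0.0327 for TRM33 and -0.00731 for NET2C, log2(signal + 16) gave -0.00147 for TRM33, and quantile normalization -0.000203 for PRAF1. With 1 array left out the ranges were -0.2 to 0.635 for TRM28, -0.141 to 0.0948 for TRM23, -0.149 to 0.15 for TRM33, -0.0121 to 0.258 for NET2D, -0.00379 to 0.185 for NET3C, -0.0429 to 0.0948 for NET2C, -0.226 to 0.0612 for PRA1.H, -0.315 to 0.126 for PRA1.G2, -0.15 to 0.241 for PRAF1. The replicate block ended 5 calls among the 21 genes. Removal by coding length was not run, as no protein table was used, and 1 probe set per gene made the mean over probe sets identical for the family genes. No detection calls were used, so signal over background is not known.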
